A study of Mus musculus with 6 samples.

Results

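The genes described here are 51 genes of DNA replication and mitosis, chosen by their symbols, out of 16640 genes in the expression tables. Of these, 27 were listed under S phase and 24 under mitosis, though some act outside that phase as well, and the 2 sets were kept apart. A dividing cell loads the MCM helicase onto replication origins, fires these origins in S phase to copy its DNA, and then drives chromosome segregation with cyclin B, CDK1 and the mitotic kinases. Transcription of the S-phase genes is switched on by E2F factors late in G1, while transcription of the mitotic genes peaks later, in G2 and M phase, under a complex that includes FOXM1 and B-MYB. Most adult β-cells rest outside the cycle, whereas β-cell lines grown in culture keep dividing, so that messengers of these genes are readily measured in them.

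The cells were MIN6, a mouse β-cell line derived from an insulinoma. *Thada*-activated cells were infected first with a lentivirus for dCas9-VP64, a nuclease-dead Cas9 fused to an activator, under puromycin, and then with a lentivirus for the guide RNA and the MS2-P65-HSF1 activator, under G418. The guide RNA directed these activators to the *Thada* promoter in the 3 *Thada*-activated libraries, while the cells of the 3 control libraries had received dCas9 and a guide RNA without a target, so the comparison asks what raised *Thada* transcription does to the β-cell transcriptome. The *Thada*-activated cells were kept as a drug-selected stable line. The study describes its in vitro experiments as independently repeated, while what the replicate numbers of these libraries mark is not given in the sources used here, and p-values measure the spread between these libraries. Estimated read counts summed to between 17166511 (control 2) and 17727004 (*Thada*-activated 1) per library, and 1 count was worth between 0.0564 and 0.0583 CPM, the unit of counts relative to library size. CPM below are scaled by the trimmed mean of M-values (TMM).

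*Thada* itself stood at 28.1, 28.9 and 17.2 CPM in control libraries 1, 2 and 3 and at 57.3, 56.2 and 49.1 CPM in the *Thada*-activated libraries. All 3 *Thada*-activated libraries lay above all 3 controls, the direction its labels state (two-sided p = 0.1 by exact permutation, which 3 against 3 libraries cannot go below). Its log2 fold change was 1.13 on condition alone (edgeR, adjusted p = 1.0) and 1.15 once the replicate number entered as a block (edgeR, adjusted p = 0.00041). Of the 13 β-cell markers looked at, *Ins2* was the most abundant, at 56400 to 103000 CPM, and *Ins1*, *Iapp*, *Pdx1*, *Nkx6-1*, *Mafa*, *Slc30a8* and *G6pc2* were present in every library. The glucose transporter gene *Slc2a2*, a defining marker of mouse β-cells, was near 0, at 0.0574 to 0.512 CPM.

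Both libraries numbered 3 stood apart from the other 4. The first principal component of log2 CPM held 80.1% of the variance and put control 3 at 52.91 and *Thada*-activated 3 at 47.27, against -25.75 to -24.16 for libraries numbered 1 and 2. *Ins2* took 10.2% and 8.36% of all counts in these 2 libraries and 5.65% to 6.44% in the others. Beside that difference, 7 of the 13 β-cell markers were lower in both libraries numbered 3 than in the other 4 and 3 were higher. Summed CPM of the 13 markers were 109000, 98300 and 132000 in the controls and 104000, 102000 and 115000 after *Thada* activation. Those of 4 of 5 α-cell markers, led by *Ttr*, were 1320, 1210 and 673 in the controls and 1290, 1280 and 810 after *Thada* activation. The 2 δ-cell markers, led by *Sst* with *Hhex* at or near 0, summed to 156, 129 and 69.0 CPM and to 143, 131 and 58.0 CPM. The PP-cell gene *Ppy* stood at 19.7, 17.8 and 27.9 CPM in the controls and at 22.5, 21.6 and 39.0 CPM after *Thada* activation, higher in both libraries numbered 3. The 4 duct markers, led by *Krt7*, summed to 152, 152 and 74.1 CPM and to 185, 187 and 99.4 CPM, with *Sox9* at 0 in 4 libraries. Fibroblast markers, led by *Col1a1*, summed to at most 6.37 CPM in any library, endothelial markers, led by *Pecam1*, to at most 1.26 CPM, and leukocyte markers, led by *Cd68*, to at most 1.24 CPM (4 of 5, 3 of 3 and 2 of 3 genes listed). These lists, with *Cdh5*, *Kdr* and *Adgre1* at or near 0, were thus near 0 in every library. At these low levels, the fibroblast and endothelial sums were higher in both libraries numbered 3 than in the other 4, and the leukocyte sum was lower. The 5 acinar genes were not analysed here. What part any of these differences has in the values below was not tested.

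All 51 genes passed the filter on low counts that left 12516 genes for testing. In the authors' FPKM, which correct for gene length, *Pcna*, the sliding clamp, was the highest of the S-phase genes, with a mean of 306 over the 6 libraries (197 to 359). *Mcm6* followed at 92.7 (59.8 to 110) and *Mcm2* at 82.0 (43.6 to 105), ranges that overlap with each other and not with that of *Pcna*. At the low end stood *Mcm10* at 7.42 FPKM (4.78 to 8.58) and *Pola1* at 7.86 FPKM (3.74 to 9.87). Among the mitotic genes *Top2a* had the highest mean, 82.2 FPKM (65.1 to 91), with *Ccna2* at 70.6, *Mki67* at 67.8 and *Mad2l1* at 67.3 overlapping it in range, and *Cenpf* the lowest, 8.65 FPKM (4.41 to 11.4). *Tyms*, *Ccne2*, *Ccna2* and *Kif20a* had fractional counts in all 6 libraries, as happens when reads are divided between similar loci, and *Cenpf*, *Anln* and *Birc5* had them in some, so the levels of these 7 genes are less certain.

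As a share of all counts, the S-phase genes took 0.323%, 0.330% and 0.235% in control libraries 1, 2 and 3 and 0.342%, 0.339% and 0.203% in the *Thada*-activated libraries. The mitotic genes took 0.313%, 0.325% and 0.247% in the controls and 0.321%, 0.317% and 0.213% after activation. Each set was thus lowest in the 2 libraries numbered 3, and the lowest share of all was in *Thada*-activated 3. In bulk RNA, fewer cycling cells and less of these messengers per cell cannot be told apart.

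**Figure D1:**
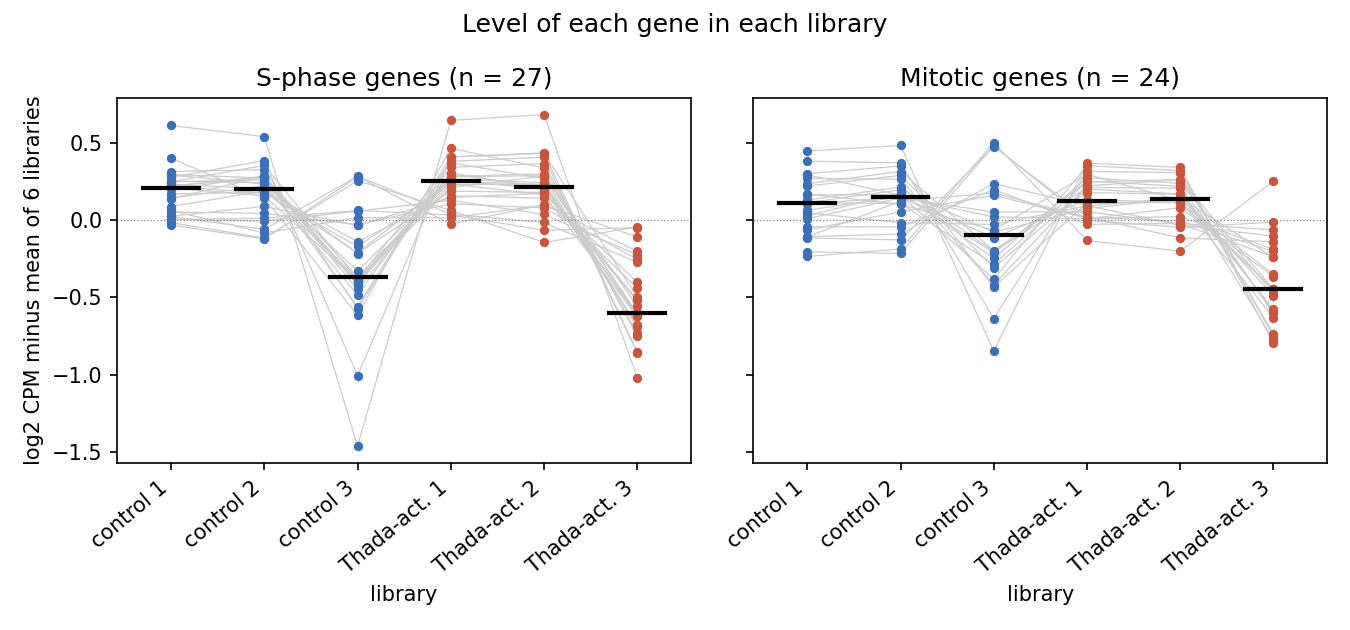
Each point is 1 gene in 1 library, as log2 CPM minus the mean of that gene over the 6 libraries, for the 27 S-phase genes (left) and the 24 mitotic genes (right); control libraries are blue, *Thada*-activated libraries red, grey lines join a gene's points and black bars are medians. The bars of both sets are lowest in *Thada*-activated 3, followed by control 3.

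Between the conditions, none of the 51 genes passed the test. edgeR's quasi-likelihood test on condition alone called 0 of 27 S-phase genes and 0 of 24 mitotic genes when calls needed both an adjusted p under 0.05 and more than 1.5-fold change, beside 0.0% of all tested genes (0 of 12516). At an unadjusted p under 0.05 it found 101 genes, none of them among the 51, and DESeq2's Wald test called 5 genes and again none of the 51. The median log2 fold change was -0.04 for the S-phase genes (range -0.17 to 0.17) and -0.08 for the mitotic genes (range -0.19 to 0.07), beside 0.00 for all tested genes. The *Thada*-activated and control libraries overlapped for each of the 51 genes, whereas 5.4% of all tested genes (676) had groups that did not overlap in either direction. Two-sided exact permutation p-values of single genes accordingly ran from 0.2 to 1.0.

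With the replicate number as a block, which takes the gap between libraries numbered 3 and the others out of the residual spread, 19 genes passed the same thresholds (0.152%), and again 0 of 27 and 0 of 24. Blocked medians were -0.05 for S-phase genes and -0.08 for mitotic genes. An unadjusted p under 0.05 was reached by 10.4% of all tested genes (1302) and by 5 of the 51, a share near that background: *Pola1* and *Tyms* were higher after activation, and *Bub1*, *Cenpe* and *Anln* lower, with the lowest adjusted p at 0.398 in edgeR. Leaving out both libraries numbered 3, edgeR called 68 of 12480 genes (0.545%), none of the 51, and the medians turned to 0.04 for the S-phase and 0.02 for the mitotic genes. At an adjusted p under 0.05 with any fold, that fit took in 3.41% of genes (426) and 1 of the 51, *Cenpe*.

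The 6 subunits of the MCM helicase ring, which unwinds DNA ahead of the fork, went together. *Mcm2* stood at 306, 301 and 169 CPM in control libraries 1, 2 and 3 and at 331, 337 and 138 CPM in the *Thada*-activated libraries. *Mcm4* stood at 163, 172 and 127 CPM in the controls and at 168, 167 and 103 CPM after activation. For each of the 6 subunits, both libraries numbered 3 were below the other 4, as for 36 of the 51 genes and 35.9% of all tested genes, and *Thada*-activated 3 was the lowest. The median difference of replicate 3 from replicates 1 and 2 was -0.74 on the log2 scale, from -1.05 for *Mcm2* to -0.54 for *Mcm4*. Between conditions the 6 log2 fold changes lay between -0.08 and 0.06.

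Origin licensing, in which CDC6 and CDT1 load that ring in G1, was split. *Cdc6* stood at 34.1, 36.7 and 22 CPM in the controls and at 33.7, 33.7 and 17.9 CPM in the *Thada*-activated libraries, lower in both libraries numbered 3. *Cdt1*, whose protein is destroyed once S phase begins, stood at 76.3, 71.7 and 94.8 CPM in the controls and at 76.6, 83.6 and 67.8 CPM after activation. Its highest library was control 3 and its lowest *Thada*-activated 3, so that its replicate 3 difference was 0.35 in the controls alone and -0.25 in the *Thada*-activated libraries alone.

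The helicase is switched on when CDC45 and the GINS complex join it, with MCM10 as a further firing factor. *Cdc45* stood at 57.0, 53.8 and 68.3 CPM in the controls and at 57.6, 55.5 and 46.4 CPM after activation, again with control 3 highest and *Thada*-activated 3 lowest. It had the largest condition difference of its role, a log2 fold change of -0.17 with a standard error of 0.14 (edgeR, adjusted p = 1.0). Subunits of the GINS complex parted: the replicate 3 difference was -0.80 for *Gins1* and 0.16 for *Gins2*, and it was -0.58 for *Mcm10*.

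Among the 7 genes of fork synthesis, *Pcna* stood at 372, 375 and 286 CPM in the controls and at 395, 381 and 218 CPM after activation. *Fen1*, the nuclease that trims Okazaki fragments, stood at 105, 106 and 56.8 CPM in the controls and at 110, 112 and 46.6 CPM after activation. Both were below the other 4 libraries in the 2 numbered 3, by 1.52-fold for *Pcna* and 2.10-fold for *Fen1*. *Pola1*, the catalytic subunit of DNA polymerase α, stood at 46.0, 49.6 and 18.9 CPM in the controls and at 50.4, 51.2 and 26.9 CPM after activation. Here control 3, not *Thada*-activated 3, was the lowest library, and *Thada*-activated was above control in each of the 3 pairs, as for 16.3% of all tested genes. With the block, the log2 fold change of *Pola1* was 0.21 ± 0.09 (SE) with an adjusted p of 0.448 in edgeR. *Prim1*, which encodes the primase that works with it, had a replicate 3 difference of -0.76, while the clamp loader genes *Rfc3* and *Rfc4* had -0.12 and 0.01 and the ligase gene *Lig1* -0.21.

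Nucleotide supply had the lowest median replicate 3 difference of any role, -0.88. *Tyms*, encoding thymidylate synthase, stood at 81.8, 77.8 and 19.4 CPM in the controls and at 83.7, 85.9 and 26.4 CPM after activation. It was 3.60-fold lower in the libraries numbered 3, the largest difference among the 51, and like *Pola1* it was lowest in control 3 and higher after activation in all 3 pairs (blocked log2 fold change 0.18 ± 0.08, SE, edgeR adjusted p = 0.462). *Rrm1*, the large subunit of ribonucleotide reductase, stood at 261, 280 and 223 CPM in the controls and at 274, 271 and 181 CPM after activation. Its difference, -0.43, was the smallest of the 4 genes, next to -0.76 for *Rrm2*, the small subunit, and -1.01 for the thymidine kinase gene *Tk1*.

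The remaining S-phase genes steer entry into S phase or keep up DNA methylation behind the fork. *E2f1* stood at 125, 113 and 121 CPM in the controls and at 121, 128 and 111 CPM after activation, with no gap between the libraries numbered 3 and the rest. *Uhrf1*, which guides DNA methylation to newly made strands, stood at 81.4, 85.0 and 78.1 CPM in the controls and at 88.5, 90.2 and 60.5 CPM after activation. Only *Thada*-activated 3 was well below the others for this gene, whereas the cyclin E genes *Ccne1* and *Ccne2* were lower in both libraries numbered 3, with log2 differences of -0.79 and -0.70.

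Of the mitotic genes, *Ccna2*, the cyclin of S phase and G2, stood at 206, 206 and 159 CPM in the controls and at 219, 214 and 122 CPM after activation. *Cdc25c*, encoding a phosphatase that activates CDK1, stood at 23.3, 23.1 and 35.1 CPM in the controls and at 25.6, 23.3 and 22.9 CPM after activation. The gene stood out by its high level in control 3 alone. It was the only 1 of the 51 that passed 1.5-fold within any pair, with a log2 ratio of -0.62 in pair 3. Of all 12516 tested genes, 383, 476 and 742 passed that fold in pairs 1, 2 and 3. *Cdk1* had a replicate 3 difference of 0.11, while its partners *Ccnb1* and *Ccnb2* had -0.66 and -0.53 and the APC/C activator gene *Cdc20* -0.55.

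Polo-like kinase 1, from *Plk1*, drives mitotic entry and spindle assembly, and its messenger stood at 84.1, 76.8 and 52.7 CPM in the controls and at 87.6, 85.7 and 40.8 CPM after activation. *Birc5*, which encodes survivin, a subunit of the chromosomal passenger complex, stood at 47.9, 45.7 and 40.7 CPM in the controls and at 52.3, 46.5 and 27.5 CPM after activation. Both genes were lowest in *Thada*-activated 3. The kinase of that complex went another way, *Aurkb* having a replicate 3 difference of 0.68 in the controls and 0.01 in the *Thada*-activated libraries, and *Aurka*, the kinase of the spindle poles, was at -0.20 over both.

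The spindle checkpoint holds cells in metaphase until every kinetochore is attached. *Bub1* stood at 60.6, 64.0 and 44.9 CPM in the controls and at 59.6, 59.4 and 30.1 CPM after activation, and was lower after activation in each of the 3 pairs, as for 16.7% of all tested genes. Its blocked log2 fold change was -0.22 ± 0.10 (SE), with an adjusted p of 0.449 in edgeR. *Mad2l1* stood at 83.5, 86.3 and 139 CPM in the controls and at 89.7, 85.5 and 117 CPM after activation. It was the only gene of the 51 with both libraries numbered 3 above the other 4, beside 35.9% of all tested genes, by 1.48-fold, and *Bub1b* and *Ttk* had differences of 0.10 and -0.02.

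For all 5 kinesin and kinetochore genes the fitted replicate 3 difference was below 0, with a median of -0.66. *Kif11*, the motor that pushes spindle poles apart, stood at 150, 159 and 119 CPM in the controls and at 155, 154 and 97.7 CPM after activation. *Cenpe*, a kinesin that carries chromosomes to the spindle equator, stood at 83.7, 86.6 and 50.3 CPM in the controls and at 73.4, 73.5 and 49.9 CPM after activation. Its condition difference was therefore in pairs 1 and 2, at log2 ratios of -0.19 and -0.24, and nearly absent from pair 3, at -0.01. Without the libraries numbered 3, the log2 fold change of *Cenpe* was -0.21 ± 0.06 (SE), with an adjusted p of 0.0266 in edgeR, under the fold threshold. In that fit, 3.41% of all tested genes reached an adjusted p under 0.05 with any fold. With all libraries the adjusted p of *Cenpe* in edgeR was 1.0, or 0.476 with the block. *Cenpf*, a large kinetochore protein gene, stood at 114, 117 and 46.5 CPM in the controls and at 108, 106 and 48.2 CPM after activation, with the largest replicate 3 difference of the mitotic genes, -1.23.

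For spindle assembly and cytokinesis, *Tpx2*, an activator of Aurora A, stood at 152, 161 and 133 CPM in the controls and at 148, 155 and 103 CPM after activation. *Anln*, which encodes the contractile ring protein anillin, stood at 125, 129 and 118 CPM in the controls and at 117, 123 and 90.3 CPM after activation. *Anln* was lower after activation in each of the 3 pairs, by a blocked log2 fold change of -0.18 ± 0.07 (SE), and its adjusted p of 0.398 in edgeR was the lowest among the 51. *Prc1*, which bundles midzone microtubules, had a replicate 3 difference of -0.02.

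*Mki67*, which coats mitotic chromosomes and is a standard proliferation marker, stood at 778, 772 and 384 CPM in the controls and at 743, 739 and 358 CPM after activation. The libraries numbered 3 were lower in both conditions, by 2.05-fold with both in 1 fit, and the log2 ratios within the 3 pairs were small, at -0.07, -0.06 and -0.10. *Top2a*, which untangles sister chromatids, had a smaller replicate 3 difference, -0.35.

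Set against each other within each replicate number, the conditions differed in direction between pairs. In pair 1, *Thada*-activated was the higher library for 24 of 27 S-phase genes and 16 of 24 mitotic genes, beside 50.1% of all tested genes, with medians of 0.06 and 0.05 on the log2 scale. In pair 2 it was the higher for 17 of 27 and 10 of 24, beside 50.2% of all tested genes, with medians of 0.04 and -0.02. In pair 3 it was the lower for 25 of 27 and 23 of 24, beside 50.8% of all tested genes, with a median of -0.28 for each set. The 3 exceptions in pair 3 were *Pola1* at 0.51, *Tyms* at 0.44 and *Cenpf* at 0.05. Across all tested genes the median log2 ratio was 0.00 in each pair. Higher in all 3 pairs were 2 S-phase and 0 mitotic genes, beside 16.3% of all tested genes, and lower in all 3 were 1 and 7, beside 16.7%. Higher in pairs 1 and 2 and lower in pair 3 were 13 S-phase and 10 mitotic genes, beside 13.0% of all tested genes. Each such ratio compares 1 library with 1 other, and the difference between pair 3 and the others was not tested. Pairs 1 and 2 rest on the replicate numbers of the labels alone.

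**Figure D2:**
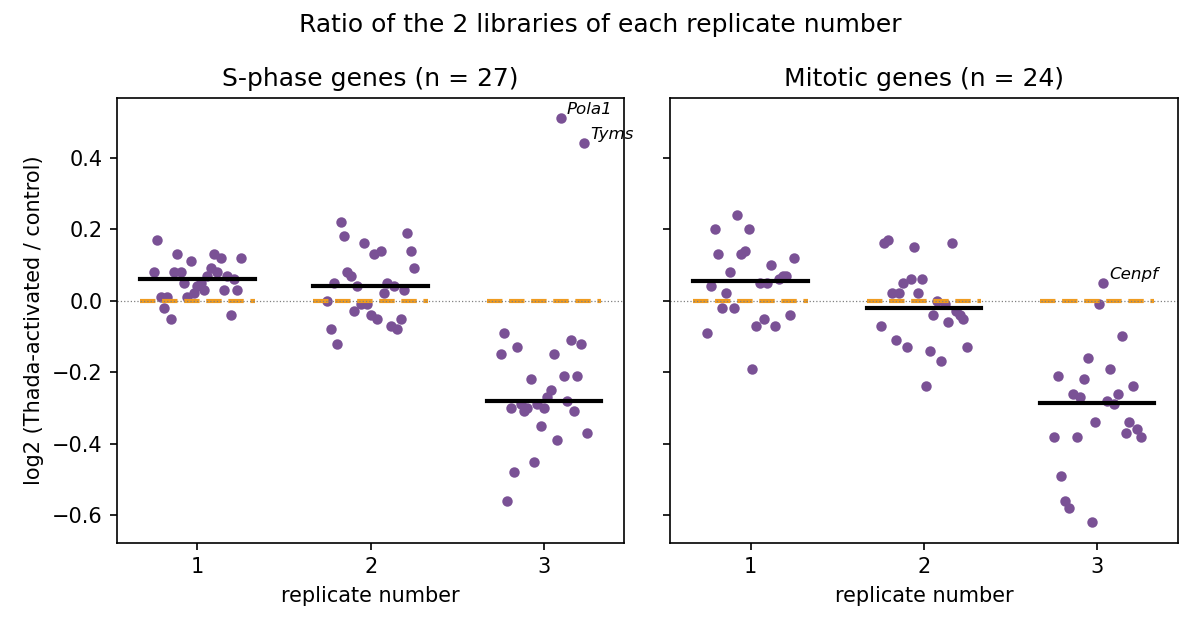
Log2 ratio of the *Thada*-activated to the control library of the same replicate number, 1 point per gene, for the 27 S-phase genes (left) and the 24 mitotic genes (right); black bars are medians over the genes shown and orange dashed bars medians over all 12516 tested genes. In replicate 3 the points lie mostly below 0, with *Pola1*, *Tyms* and *Cenpf* above it.

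The median between conditions, -0.04 for S-phase genes, moved with the library left out. It was 0.02, 0.02 and -0.17 without control 1, 2 and 3 in turn, and -0.15, -0.14 and 0.17 without *Thada*-activated 1, 2 and 3. For the mitotic genes the same omissions gave -0.06, -0.05 and -0.15, and -0.18, -0.16 and 0.08. Any 1 omission leaves replicate 3 with unequal weight in the groups, so these values do not bear on differences within pairs.

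Replicate 3 was then set against replicates 1 and 2, as a description with no p-value, since it was singled out for standing apart. With condition in the fit, the S-phase genes had a median log2 difference of -0.71 and the mitotic genes one of -0.45, beside 0.00 for all tested genes. Of the S-phase genes 23 of 27 were below 0, and of the mitotic genes 19 of 24. Both libraries numbered 3 lay below all 4 others, with a fold over 1.5, for 16 S-phase and 8 mitotic genes, beside 15.4% of all tested genes. In the other direction 0 of 51 did so, beside 15.8% of all tested genes. Roles with the lowest medians were nucleotide supply at -0.88, the MCM ring at -0.74 and mitotic chromosomes at -0.69, while the spindle checkpoint had a median of 0.04 and helicase activation one of -0.28.

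The gap was present in each condition on its own. Control 3 differed from control 1 and 2 by a median of -0.59 for S-phase genes and -0.24 for mitotic genes. *Thada*-activated 3 differed from its own replicates 1 and 2 by -0.85 and -0.56. In 38 of 51 genes replicate 3 was lower in both conditions, beside 43.4% of all tested genes, and in 2, *Aurkb* and *Mad2l1*, higher in both, beside 42.7%. Another 11 genes were higher in control 3 and lower in *Thada*-activated 3, beside 6.79% of all tested genes. These were *Cdt1*, *Gins2*, *Cdc45*, *Rfc3*, *Rfc4* and *E2f1* of S phase and *Cdk1*, *Cdc25c*, *Bub1b*, *Ttk* and *Prc1* of mitosis, and the opposite arrangement occurred in 0 of the 51, beside 7.0% of all tested genes. These comparisons use the same libraries as pair 3 and are not further evidence for it.

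**Figure D3:**
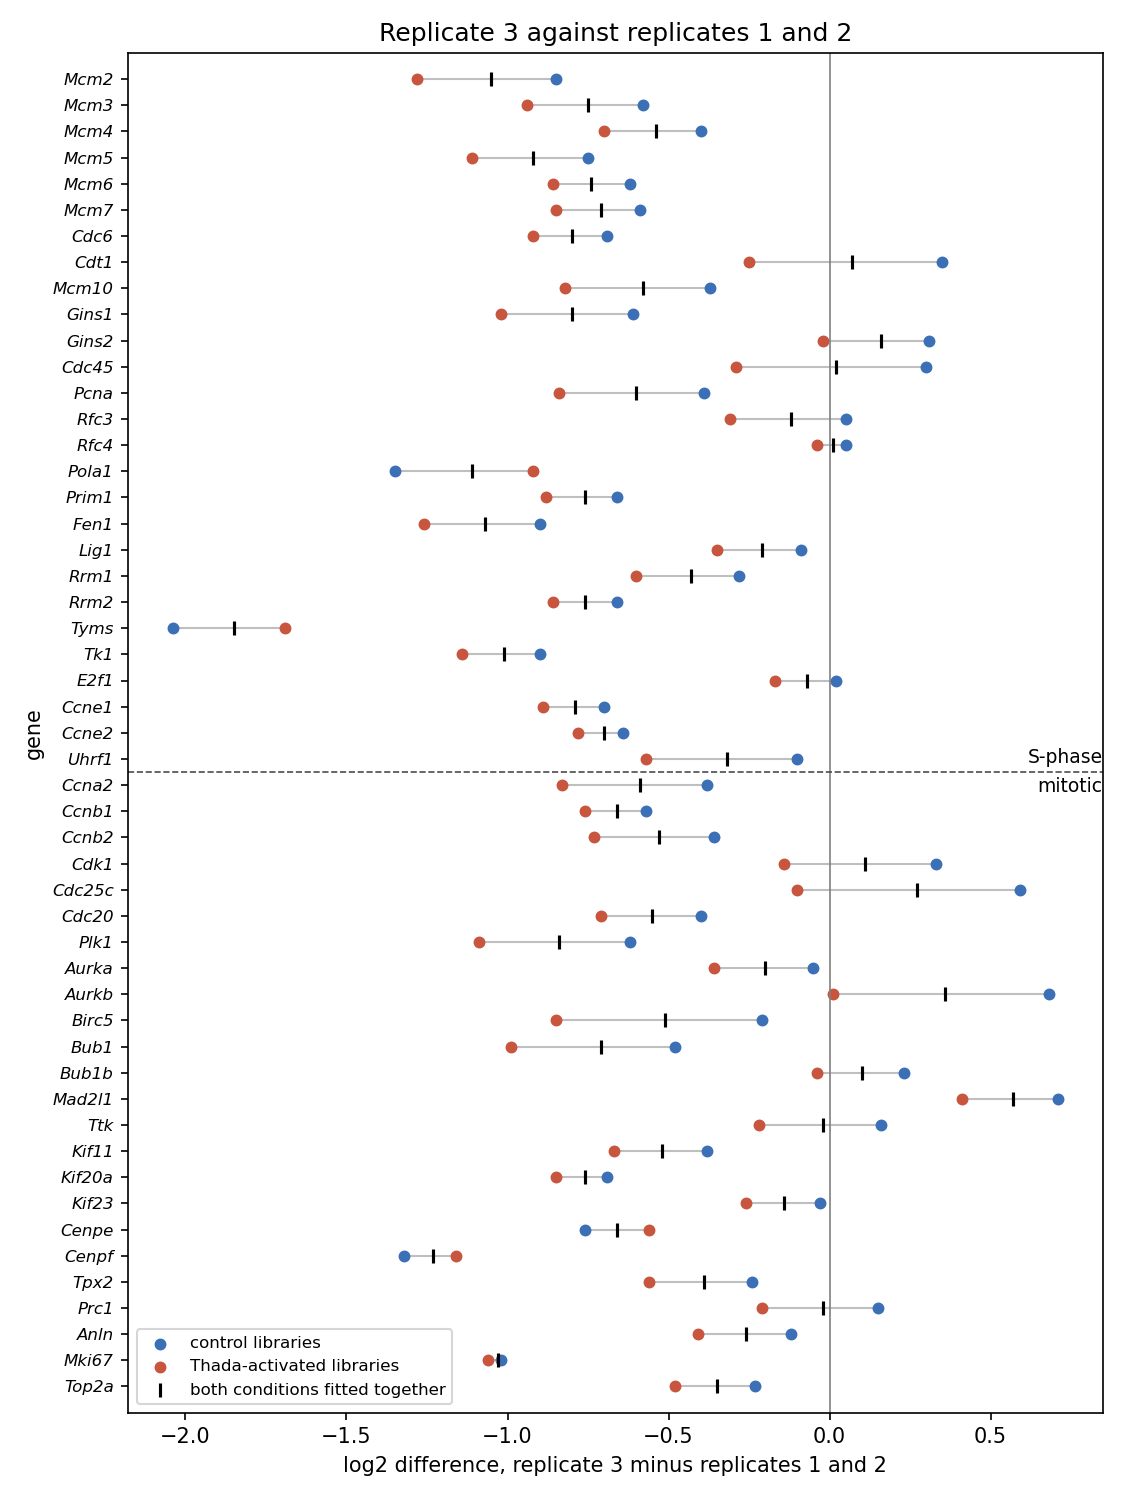
Log2 difference of replicate 3 from replicates 1 and 2 for each of the 51 genes, in the control libraries alone (blue), in the *Thada*-activated libraries alone (red) and with both conditions in 1 fit (black tick); the dashed line parts S-phase from mitotic genes. Most points lie left of 0, and among the black ticks *Tyms* at -1.85 is the farthest left and *Mad2l1* at 0.57 the farthest right.

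The 2 sets overlapped widely in their replicate 3 differences, from -1.85 to 0.16 for S-phase genes and from -1.23 to 0.57 for mitotic genes, and the gap between their medians was not tested. Mean log2 CPM of the S-phase genes was 6.44, 6.43 and 5.96 in the controls and 6.50, 6.47 and 5.74 after activation. For the mitotic genes it was 6.53, 6.57 and 6.35 in the controls and 6.58, 6.55 and 6.04 after activation. Centred on the 6 libraries, the mitotic minus S-phase difference was -0.09, -0.05 and 0.21 in the controls and -0.10, -0.10 and 0.13 after activation. In each condition, replicate 3 was the library with the highest value. In pairs 2 and 3 the *Thada*-activated library was below its control, and in pair 1 the values lay too close to be ordered, since log2(FPKM + 1) gave -0.09 for both.

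Other genes of the same pathways, from lists that leave out the 51, had median replicate 3 differences nearer 0. Of 44 other replication genes, all tested, 0 passed the test between conditions (blocked fit also 0), and the median replicate 3 difference was -0.22, with 11 past the 1.5-fold rule downwards and 2 upwards, beside 15.4% and 15.8% of all tested genes. Among those, *Timeless*, a fork protection gene, was at -1.26 and the DNA methyltransferase gene *Dnmt1* at -0.73, whereas *Pold4*, a small subunit of DNA polymerase δ, was at 1.5. Of 55 other mitotic genes, 0 passed between conditions, and the median difference was -0.26, with 9 downwards, a share near that of all tested genes, and 3 upwards. Medians of these 2 lists thus lay close together, the mitotic one being the lower, which is not the order of the 2 sets among the 51. The securin gene *Pttg1* was at 1.51 and the CDK subunit genes *Cks2* and *Cks1b* at 0.78 and 0.67, while *Mad1l1*, whose protein binds that of *Mad2l1*, was at -1.03. Within pair 3, *Thada*-activated was the lower library for 38 of the 44 and 50 of the 55, beside 50.8% of all tested genes, with medians of -0.15 and -0.27. Higher in control 3 and lower in *Thada*-activated 3 were 4 of the 44 and 17 of the 55, beside 6.79%.

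Of 22 regulators of the programme, 0 passed between conditions, and the median replicate 3 difference was 0.05, with 3 downwards, again near the share of all tested genes, and 1 upwards. *Foxm1*, the activator of the mitotic genes, stood at 153, 152 and 82.2 CPM in the controls and at 157, 161 and 73.8 CPM after activation. *Nfyc*, a subunit of the CCAAT-binding factor NF-Y, had the lowest difference of these regulators, -1.37, and its partners *Nfya* and *Nfyb* were at 0.28 and 0.32. *E2f8*, an E2F repressor, was at -0.73, *E2f5* at 0.77 and *Rb1* at 0.38. The genes named from these lists, and those of the 51 given without a value in every library, were picked after their values were seen.

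Promoter letters were searched for because most of these genes differ together in replicate 3. RefSeq promoters (GRCm38.p6) were listed for 42 of the 51 genes, 23 of S phase and 19 of mitosis, and the 250 bases before the start were read on both strands, using the entry listed first for the 5 genes with several. For *Cdc6*, *Cdt1*, *Mcm10*, *E2f1* and *Anln* these bases lie inside the gene as the expression tables place it, so that their counts may not be those of the promoter in use. The E2F motif, written as TTTCCCGC, TTTCGCGC, TTTGCCGC or TTTGGCGC, was in 6 of 23 S-phase promoters (26.1%) and 1 of 19 mitotic promoters (5.26%), beside 1.86% of all 32851 promoters of that length. The CCAAT box was in 14 S-phase (60.9%) and 16 mitotic promoters (84.2%), beside 33.8% of all promoters. The core of the cell cycle homology region (CHR), written as TTTGAA or TTCGAA, was in 5 S-phase (21.7%) and 7 mitotic promoters (36.8%), beside 17.1%. All 7 mitotic promoters with a CHR core also held CCAAT, a combination found in 4 S-phase promoters and in 6.02% of all promoters. No match of 1 motif overlapped a match of another. A match is a description of letters, not of a bound site.

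Replicate 3 differences of genes with and without a match were set side by side, with no test. S-phase genes with an E2F match had a median of -0.77 (6 genes) and those without -0.60 (17 genes). With CCAAT the median was -0.72 (14 genes) and without it -0.79 (9 genes), and with and without a CHR core it was -0.71 (5 genes) and -0.74 (18 genes). With CHR and CCAAT together it was -0.42 (4 genes), and for the others -0.75 (19 genes). The widest gap among these S-phase comparisons was for genes with none of the motifs. Their median was -0.21 (7 genes), against -0.74 for those with any (16 genes). Of the 7, *Cdt1* at 0.07 and *E2f1* at -0.07 were read inside the gene. The rest were *Rfc4* at 0.01, *Lig1* at -0.21, *Ccne1* at -0.79, *Tk1* at -1.01 and *Tyms* at -1.85. Their middle value was -0.79, so the gap depended on the 2 genes read inside the gene. For mitotic genes with and without CCAAT the median was -0.52 (16 genes) and -0.26 (3 genes), and with and without a CHR core -0.52 (7 genes) and -0.38 (12 genes). The 1 mitotic gene with an E2F match, *Cdk1*, was at 0.11 and the other 18 had a median of -0.52. The 3 mitotic genes without CCAAT were also those with none of the motifs. They were *Birc5* at -0.51, *Mad2l1* at 0.57 and *Anln* at -0.26, and *Anln* was read inside the gene. Promoters of 5 genes are shown, picked by hand after their values were seen, with replicate 3 differences from -1.85 to 0.57. Matches are in capitals, and all sequences run 5′ to 3′ toward the start. *Mcm6* (chr1:128359706-128359955, minus strand), with a replicate 3 difference of -0.74, has 3 E2F and 2 CCAAT matches. *Cenpf* (chr1:189688087-189688336, minus strand), at -1.23, has 2 CCAAT matches, and *Tyms* (chr5:30073626-30073875, minus strand), at -1.85, has no match. *Cdk1* (chr10:69352913-69353162, minus strand), at 0.11, has 1 E2F, 3 CCAAT and 2 CHR matches, and 26 of its bases lie in an exon of a *Cdk1* transcript in GENCODE. *Mad2l1* (chr6:66534971-66535220, plus strand), the 1 gene with both libraries numbered 3 above all 4 others, has no match.
*Mcm6*: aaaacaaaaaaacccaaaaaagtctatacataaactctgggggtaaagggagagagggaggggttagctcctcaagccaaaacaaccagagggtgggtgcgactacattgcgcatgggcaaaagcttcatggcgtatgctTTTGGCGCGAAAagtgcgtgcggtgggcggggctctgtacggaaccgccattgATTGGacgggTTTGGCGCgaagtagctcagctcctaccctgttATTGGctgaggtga
*Cenpf*: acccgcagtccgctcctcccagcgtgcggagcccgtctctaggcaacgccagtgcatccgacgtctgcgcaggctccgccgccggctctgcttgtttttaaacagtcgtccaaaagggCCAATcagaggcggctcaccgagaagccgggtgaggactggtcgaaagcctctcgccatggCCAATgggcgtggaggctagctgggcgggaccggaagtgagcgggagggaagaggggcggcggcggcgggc
*Tyms*: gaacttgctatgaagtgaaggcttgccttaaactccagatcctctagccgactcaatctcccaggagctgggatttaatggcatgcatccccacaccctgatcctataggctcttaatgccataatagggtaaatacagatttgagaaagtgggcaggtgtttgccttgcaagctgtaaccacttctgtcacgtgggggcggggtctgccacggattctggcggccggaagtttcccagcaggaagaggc
*Cdk1*: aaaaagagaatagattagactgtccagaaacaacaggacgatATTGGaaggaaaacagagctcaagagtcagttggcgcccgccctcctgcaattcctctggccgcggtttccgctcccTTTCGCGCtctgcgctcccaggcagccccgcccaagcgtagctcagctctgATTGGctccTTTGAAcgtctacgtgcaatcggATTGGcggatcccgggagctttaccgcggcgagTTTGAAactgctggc
*Mad2l1*: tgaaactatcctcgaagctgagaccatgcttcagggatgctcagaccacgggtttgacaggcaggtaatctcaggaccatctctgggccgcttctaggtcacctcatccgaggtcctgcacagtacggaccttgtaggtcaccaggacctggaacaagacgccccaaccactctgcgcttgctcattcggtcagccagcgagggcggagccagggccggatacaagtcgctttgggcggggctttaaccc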

How the data were processed

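RNA-seq libraries (BGISEQ-500 per the study's methods) from 6 MIN6 samples were grouped by their labels. The authors deposited estimated counts and FPKM per gene; the submitters' processing notes name GRCm38, Bowtie2, RSEM and DESeq2, and versions of these tools are not given in the sources used here. The authors' comparison columns hold DESeq2 fold changes and p-values and were not used. Deposited estimated counts were rounded to whole numbers. Deposited FPKM values served for levels between genes and as an alternative scale for the mitotic minus S-phase difference of each library. Counts were filtered (filterByExpr), scaled by TMM and tested with edgeR 4.0.16 in R 4.3.3 (robust quasi-likelihood F test, condition only, Benjamini-Hochberg adjustment over 12516 genes); a call needed an adjusted p under 0.05 and a fold over 1.5. Log2 CPM used a prior count of 2. Steps were tested on simulated data. DESeq2 1.42.0, other scalings and filters, the replicate block and left-out libraries were the alternatives. Replicate 3 was contrasted with 1 and 2 in edgeR with condition in the fit, with no p-value.

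Replicate numbers come from the labels. Deviations from the group means correlated at 0.667, 0.671 and 0.869 between same-numbered libraries, so the numbers were taken to pair samples, although libraries 1 and 2 crossed gave 0.726 and 0.705. No 2 libraries of the same group agreed within sampling noise.

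The members and lists were chosen with earlier results of these data known. Values in every library were given for the member of each role with the highest mean CPM and that with the largest absolute log2 fold change, for members with an unadjusted p under 0.05 with or without the block, and for the 3 members of each set farthest from 0 in the replicate 3 difference.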

Additional observations from a re-analysis of the deposited data

How the results depend on the processing

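No S-phase or mitotic gene was called under any of the alternatives. Calls over all genes were 0 under the other scalings and filters and without any 1 library, but 5 with DESeq2's Wald test, 19 with the replicate block, 18 with the replicate block in DESeq2, and 68 without both libraries numbered 3, against 0; the cause was not tested. The block changed no call among the 51 genes. Leaving out single libraries took the median log2 fold change from -0.17 to 0.17 for S-phase genes and from -0.18 to 0.08 for mitotic genes, and the median replicate 3 difference from -0.84 to -0.58 and from -0.56 to -0.23. Other scalings and filters kept these differences between -0.73 and -0.70 and between -0.46 and -0.44, and with log2(FPKM + 0.1) or log2(FPKM + 1) replicate 3 still had the highest mitotic minus S-phase value of each condition, while with log2(FPKM + 1) both libraries numbered 1 were at -0.09.

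Of 336 values of the 24 genes given in full, 276 kept the sign of the condition difference and 60 turned, and none passed the thresholds. Signs were read however small the value, so some turns are to or from values that print as 0.00. Without single libraries no turn was counted for *Anln* (-0.26 to -0.05), *Cdc45* (-0.24 to -0.06) and *Cenpe* (-0.38 to 0.00). Without single libraries the log2 fold change ran from -0.28 to 0.14 for *Birc5*, -0.34 to 0.07 for *Bub1*, -0.18 to 0.18 for *Ccna2*, -0.29 to 0.04 for *Cdc25c*, -0.32 to 0.12 for *Cdc6*, -0.17 to 0.04 for *Cdt1*, -0.40 to 0.21 for *Cenpf*, -0.05 to 0.06 for *E2f1*, -0.23 to 0.32 for *Fen1*, -0.19 to 0.12 for *Kif11*, -0.24 to 0.20 for *Mad2l1*, -0.17 to 0.37 for *Mcm2*, -0.20 to 0.12 for *Mcm4*, -0.34 to 0.20 for *Mki67*, -0.20 to 0.17 for *Pcna*, -0.17 to 0.28 for *Plk1*, -0.16 to 0.41 for *Pola1*, -0.18 to 0.10 for *Rrm1*, -0.24 to 0.03 for *Tpx2*, -0.29 to 0.51 for *Tyms* and -0.13 to 0.13 for *Uhrf1*. Without both libraries numbered 3 it turned to 0.08 for *Birc5*, 0.07 for *Ccna2*, 0.08 for *Cdc25c*, 0.03 for *Cdc45*, 0.12 for *Cdt1*, 0.00 for *Kif11*, 0.05 for *Mad2l1*, 0.06 for *Pcna*, 0.01 for *Rrm1* and 0.10 for *Uhrf1*. With the replicate block it turned to -0.03 for *Fen1* and -0.04 for *Plk1*, and with the replicate block in DESeq2 to -0.04 for *Fen1*, -0.05 for *Plk1*, 0.00 for *E2f1* and 0.00 for *Mcm2*. The cause was not tested. The lowest count of any of the 51 genes was 100, and what part depth has in these values was not tested.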
